A study of Homo sapiens with 4 samples.

Results

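The 10 heat shock protein genes described here are HSP90AA1, HSP90AB1, HSPA1A, HSPA1B, HSPA8, HSPA5, HSPD1, HSPE1, HSPH1 and DNAJB1, taken by name from a count table of 67062 Ensembl gene rows. All 10 had a row, and all 10 passed the filter on low counts that left 15918 genes for testing. HSP90AB1, HSPA1A and HSPA1B lie on chromosome 6, and the other 7 lie on chromosomes 2, 9, 11, 13, 14 and 19. RNA came from OCI-AML3, an established human acute myeloid leukaemia line with the cytoplasmic NPM1 mutation (NPM1c+). Every culture had been transduced with the retroviral vector pMSCV-PIG, which carries puromycin resistance and GFP behind a PGK promoter, and had been sorted for GFP. In the PIG-LONA group the vector also expressed the long noncoding RNA LONA from an RNA polymerase II promoter, and in the PIG-EMPTY group it had no insert. Each group held 2 libraries from 2 independent transductions, so n = 2 per group throughout, and the spread between libraries covers separate transductions of a single line.

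Heat shock proteins are chaperones: they bind unfolded or partly folded proteins and use ATP to help them fold, keep them soluble or hand them on for degradation. HSP90 and HSP70 proteins form the core of the cytosolic system, J proteins such as DNAJB1 pass clients to HSP70, and HSP110 proteins such as HSPH1 exchange its nucleotide. HSPA5 does this work in the endoplasmic reticulum, and HSPD1 with HSPE1 forms the folding chamber of mitochondria. Under protein stress, heat shock factor 1 (HSF1) binds repeats of nGAAn in promoters and raises the cytosolic genes together, while ER stress acts on HSPA5 through other elements. In leukaemia cells HSP90 is known for stabilising signalling kinases.

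Total counts ran from 29819572 to 38358442 per library, so the 10 genes were read at 908 to 129000 counts each. The myeloid origin given by the label of the line was checked on markers, which cannot tell OCI-AML3 from other myeloid cells. The 12 genes listed as markers of acute myeloid leukaemia cells were all detected, with a summed level of 2917 to 2933 CPM (counts scaled to a common library total) in PIG-EMPTY and 2842 to 2908 in PIG-LONA. NPM1 alone gave 1765 to 1798 CPM, so the sums mostly reflect that gene. The lowest of the 12 was MPO, the myeloperoxidase gene, at 2.09 to 2.79 CPM. Of 11 defining genes of B, T, erythroid, epithelial, fibroblast and liver cells, 5 (CD3E, CD3D, HBB, HBG1 and EPCAM) had a count of 0 in every library and the list summed to 0.495 to 0.782 CPM. The level of LONA itself was not analysed here, so the group labels have no check from the expressed transcript.

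Several of these genes are known to share stress elements near their starts, and the sequences before HSPA1A, HSPA1B, HSP90AB1 and HSPA5 carry examples. The sequences are from RefSeq (GRCh38.p14, the 250 bases before each start site, 16 such windows for the 10 genes) and are cut where GENCODE annotates an exon. In HSPA1A (chr6:31815293-31815463, plus strand) and HSPA1B (chr6:31827488-31827734, plus strand), capitals mark GAANNTTC, a pair of facing HSF1 units. In HSP90AB1 (chr6:44247693-44247865, plus strand, before the most downstream of its 3 RefSeq starts), they mark the triple form, 3 units in alternating direction. In HSPA5 (chr9:125241344-125241593, minus strand), they mark the endoplasmic reticulum stress element, CCAAT and CCACG with 9 bases between them.
HSPA1A: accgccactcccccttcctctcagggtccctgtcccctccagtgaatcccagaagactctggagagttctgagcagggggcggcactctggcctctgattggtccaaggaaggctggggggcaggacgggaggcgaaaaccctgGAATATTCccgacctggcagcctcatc
HSPA1B: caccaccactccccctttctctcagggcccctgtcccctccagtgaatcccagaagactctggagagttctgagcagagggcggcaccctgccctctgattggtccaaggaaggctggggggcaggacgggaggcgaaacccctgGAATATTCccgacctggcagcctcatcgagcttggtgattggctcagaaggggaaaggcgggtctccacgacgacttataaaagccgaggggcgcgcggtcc
HSP90AB1: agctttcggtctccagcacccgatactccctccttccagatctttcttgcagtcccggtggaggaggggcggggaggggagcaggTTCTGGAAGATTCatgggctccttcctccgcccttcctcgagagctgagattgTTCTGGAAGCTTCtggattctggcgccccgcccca
HSPA5: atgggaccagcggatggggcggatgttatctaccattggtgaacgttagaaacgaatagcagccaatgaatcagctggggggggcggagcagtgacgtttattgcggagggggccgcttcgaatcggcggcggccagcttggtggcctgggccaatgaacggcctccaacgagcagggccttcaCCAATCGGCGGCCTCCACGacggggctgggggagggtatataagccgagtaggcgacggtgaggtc

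The triple heat shock element was found, on either strand, before at least 1 start of 4 of the 10 genes. They were HSP90AA1, HSP90AB1, HSPA8 and HSPD1. Over all genes with a promoter window it stood before 152 of 27305, and in 0.441% of all 35116 windows. The pair (GAANNTTC or TTCNNGAA, which every triple contains) stood before 7 of the 10, with HSPA1A, HSPA1B and DNAJB1 in addition. Over all genes the pair stood before 3813 of 27305, and in 11.6% of windows. The endoplasmic reticulum stress element stood in HSPA5 and in 0.0740% of windows. The TATA box core TATAAA or TTTATA was found in HSPA1A and HSPA1B and in 10.7% of windows. These are matches of letters only. Genes with a triple element occur on chromosome 6 and elsewhere, so this feature does not separate the 3 chromosome 6 genes from the others. The HSPA1A and HSPA1B windows are near copies of each other, with 235 of 249 aligned bases identical (94.4%).

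Of the 10 genes, HSP90AB1, HSPA1A and HSPA1B rose in PIG-LONA and 0 fell. A gene was called where its p from the quasi-likelihood test of edgeR, adjusted by Benjamini-Hochberg across the 15918 tested genes, was under 0.05. At unadjusted p under 0.05 in edgeR 4 were higher and 1 was lower, and DESeq2 and limma-voom also called 0 lower. Across all tested genes 6.44% were called, 2.93% higher and 3.51% lower. The 3 that rose are exactly the 3 on chromosome 6, where 28.3% of tested genes were called higher, against 1.59% of genes on other chromosomes. The rises were small, at 1.11-fold for HSP90AB1, 1.15-fold for HSPA1A and 1.25-fold for HSPA1B. In bulk RNA, a changed share of cells of a kind and a changed level per cell cannot be told apart. In 8 of the 10 genes the libraries of the groups did not overlap, against 48.0% of all tested genes and 69.3% of those on chromosome 6.

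**Figure D1:**
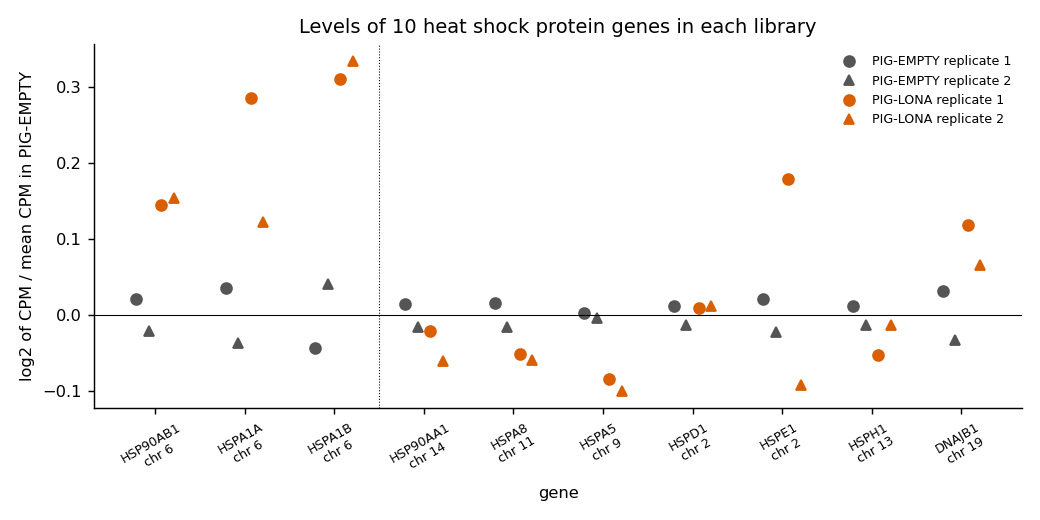
Level of each gene in each library, as log2 of its CPM over the mean CPM of the PIG-EMPTY libraries (y axis), for the 10 genes (x axis, chromosome under each name). Grey is PIG-EMPTY and orange PIG-LONA, and circles and triangles are replicates 1 and 2. Left of the dotted line, the PIG-LONA libraries lie above both PIG-EMPTY libraries in all 3 chromosome 6 genes.

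HSP90AB1 and HSP90AA1 encode the constitutive and the more stress-responsive cytosolic form of HSP90. HSP90AB1 (ENSG00000096384.20, chromosome 6, 44246166 to 44253888, GRCh38) stood at 3059 and 2971 CPM in PIG-EMPTY replicates 1 and 2 and at 3333 and 3355 CPM in PIG-LONA replicates 1 and 2. Both PIG-LONA libraries were above both PIG-EMPTY libraries, by more than the spread within either group. The group means were 3015 ± 61.6 and 3344 ± 15.6 CPM (SD, n = 2 each), which is a log2 fold change of 0.15 (SE 0.03) with an edgeR adjusted p of 0.00522. The call was lost without PIG-EMPTY replicate 1 (edgeR adjusted p = 0.124) and without PIG-EMPTY replicate 2 (0.399).

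HSP90AA1 (ENSG00000080824.18, chromosome 14, 102080738 to 102139699) went slightly the other way. Its libraries gave 3341 and 3273 CPM in PIG-EMPTY and 3260 and 3173 CPM in PIG-LONA. The PIG-LONA libraries were the lower ones, but the gap between the groups was smaller than the spread within them. The log2 fold change was -0.04 ± 0.03 and did not pass the test (edgeR adjusted p = 0.558), although it did without PIG-LONA replicate 1 (-0.06, edgeR adjusted p = 0.0176). Per kilobase of merged exon, HSP90AB1 had the highest level of the 10 genes (1067 CPM per kilobase over the 4 libraries), ahead of HSP90AA1 (621). This order depends on the merged exon lengths, 2980 bases for HSP90AB1 and 5248 for HSP90AA1, since the CPM of the pair were close.

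The number of HSP90AB1 reads per HSP90AA1 read needs no scaling between libraries. It was 0.915 and 0.908 for the PIG-EMPTY libraries, against 1.02 and 1.06 for the PIG-LONA libraries. HSP90AB1 was thus the less counted of the pair in both PIG-EMPTY libraries and the more counted in both PIG-LONA libraries. The log2 ratio differed by 0.19, a 14.0% change. An exact two-sided permutation test over the 4 libraries gave p = 0.333, the smallest that 2 against 2 allows. This p was not adjusted over the 3 ratios compared. The coding sequences of the pair are identical at 76.0% of 2172 aligned bases. Of the 75-base stretches, 8.11% in HSP90AA1 transcripts and 4.68% in HSP90AB1 transcripts occur in any other gene on either strand.

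HSPA1A and HSPA1B encode the major stress-inducible HSP70 and are copies of each other: 4 of their 1923 coding bases differ (99.8% identity). HSPA1A (ENSG00000204389.10, chromosome 6, 31815464 to 31817946) had 79.7 and 75.7 CPM in PIG-EMPTY and 94.7 and 84.6 CPM in PIG-LONA. PIG-LONA replicate 1 was the highest library, and PIG-LONA replicate 2 lay closer to the PIG-EMPTY libraries. The group means were 77.7 ± 2.77 and 89.6 ± 7.13 CPM (SD, n = 2 each), and the log2 fold change was 0.20 ± 0.05 (edgeR adjusted p = 0.0175). The call was lost without PIG-EMPTY replicate 2 (edgeR adjusted p = 0.243), in DESeq2 (adjusted p = 0.0646) and without the low-count filter (edgeR adjusted p = 0.152). Leaving out PIG-LONA replicate 1 kept the call, but with a log2 fold change of 0.12.

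HSPA1B (ENSG00000204388.7, chromosome 6, 31827735 to 31830255) had 30.5 and 32.3 CPM in PIG-EMPTY and 39.0 and 39.6 CPM in PIG-LONA. The groups were well apart and each was tight, at 31.4 ± 1.30 and 39.3 ± 0.46 CPM (SD, n = 2 each). Its log2 fold change of 0.32 ± 0.06 was the largest of the 10 genes (edgeR adjusted p = 0.00101). It was called whichever library was left out, with log2 fold changes between 0.28 and 0.37.

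The split of reads between the copies is uncertain. Of all 75-base stretches of HSPA1A transcripts, 69.3% also occur in HSPA1B transcripts, and 70.1% of those of HSPA1B occur in HSPA1A. How reads that fit both copies were counted is not given in the sources used here. HSPA1A had 2.61 and 2.34 reads per HSPA1B read in PIG-EMPTY, against 2.43 and 2.14 in PIG-LONA. With both copies summed to a single row the log2 fold change was 0.24 ± 0.04 (edgeR adjusted p = 0.00137). Reads that fit both copies and were not counted for either would be missing from this sum as well. Exons of HSPA1B also overlap another annotated gene on the same strand over 920 bases, 36.5% of HSPA1B. That gene was listed at 0 in every library. The part of this overlap in the HSPA1B level was not tested.

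HSPA8 (ENSG00000109971.14), the constitutive cytosolic HSP70, lies on chromosome 11 (123057489 to 123063230). It had 2694 and 2635 CPM in PIG-EMPTY and 2571 and 2557 CPM in PIG-LONA. The PIG-LONA libraries were lower without overlap, but the difference was small and did not pass (log2 fold change -0.06 ± 0.03, edgeR adjusted p = 0.370). It passed without PIG-LONA replicate 1 (edgeR adjusted p = 0.0240). Per kilobase of merged exon HSPA8 stood at 539 CPM, far above HSPA1A (33.7) and HSPA1B (14.0) as counted. If reads that fit both HSPA1A and HSPA1B were not counted, the levels of these copies would be too low.

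HSPA5 (ENSG00000044574.8), the HSP70 of the endoplasmic reticulum, lies on chromosome 9 (125234853 to 125241330). Its libraries gave 834 and 830 CPM in PIG-EMPTY and 785 and 776 CPM in PIG-LONA. The groups were tight and did not overlap, with PIG-LONA lower. The log2 fold change of -0.09 ± 0.03 did not pass the test (edgeR adjusted p = 0.109), and it passed without PIG-LONA replicate 1 (edgeR adjusted p = 0.000622) or without PIG-LONA replicate 2 (0.0103). A fit in which a group keeps a single library assumes that the lone library varies like the others.

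Against these paralogs, HSPA1A and HSPA1B together gave 0.0409 and 0.0410 reads per HSPA8 read in PIG-EMPTY, against 0.0520 and 0.0486 in PIG-LONA. Per HSPA5 read they gave 0.132 and 0.130 for PIG-EMPTY, against 0.170 and 0.160 in PIG-LONA. In both ratios the PIG-EMPTY libraries were close together and the PIG-LONA libraries were above them. The log2 ratios differed by 0.29 for HSPA8 and 0.33 for HSPA5, which are changes of 22.7% and 25.8%. The exact permutation test gave p = 0.333 for each, its smallest possible value. HSPA1A shares 73.9% of aligned coding bases with HSPA8 and 63.7% with HSPA5.

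**Figure D2:**
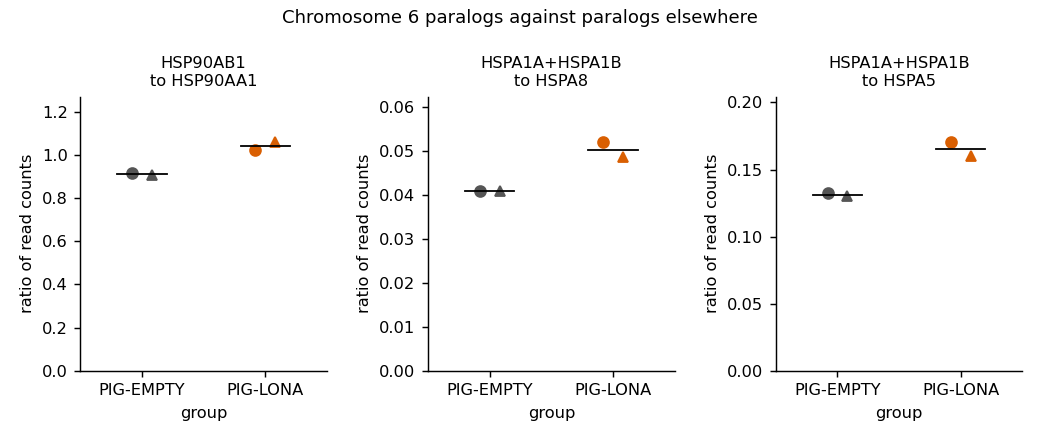
Ratio of read counts within each library (y axes, from 0) for HSP90AB1 to HSP90AA1, HSPA1A plus HSPA1B to HSPA8, and HSPA1A plus HSPA1B to HSPA5, by group (x axes). Circles and triangles are replicates 1 and 2, and lines are group means. The PIG-LONA libraries lie above the PIG-EMPTY libraries in each panel.

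DNAJB1 (ENSG00000132002.8), the main stress-inducible J protein partner of HSP70, lies on chromosome 19 (14514770 to 14529770). It had 137 and 131 CPM in PIG-EMPTY and 145 and 140 CPM in PIG-LONA. The PIG-LONA libraries were the higher ones by a narrow margin. The log2 fold change was 0.09 ± 0.04 and did not pass (edgeR adjusted p = 0.223), although it did without PIG-LONA replicate 2 (0.12, edgeR adjusted p = 0.0273). HSPH1 (ENSG00000120694.20), the HSP110 nucleotide exchange factor on chromosome 13 (31134974 to 31162388), had 396 and 389 CPM in PIG-EMPTY and 378 and 389 CPM in PIG-LONA. PIG-LONA replicate 2 stood at the level of PIG-EMPTY replicate 2, and the log2 fold change was -0.03 ± 0.03 (edgeR adjusted p = 0.689). HSPH1 did not pass under any of the 16 alternatives tried. Per kilobase of merged exon HSPH1 (46.3 CPM) and DNAJB1 (37.6) were close to HSPA1A as counted.

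HSPD1 (ENSG00000144381.17) and HSPE1 (ENSG00000115541.11), the mitochondrial chaperonin and its lid, lie head to head on chromosome 2 (197486581 to 197516737 and 197499994 to 197503457). HSPD1 was almost flat, with 1232 and 1211 CPM in PIG-EMPTY and 1230 and 1231 CPM in PIG-LONA (log2 fold change 0.01 ± 0.03, edgeR adjusted p = 0.909). HSPE1 had 44.8 and 43.4 CPM in PIG-EMPTY and 49.9 and 41.4 CPM in PIG-LONA. Its PIG-LONA libraries were the highest and the lowest of the 4, so the groups overlapped (log2 fold change 0.04 ± 0.07, edgeR adjusted p = 0.809). Without PIG-LONA replicate 2 the value was 0.18 and passed (edgeR adjusted p = 0.0308), and without PIG-LONA replicate 1 it was -0.09.

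Per kilobase of merged exon HSPD1 stood at 289 CPM and HSPE1 at 22.7, although their proteins act together. Exons of the pair overlap on opposite strands over 281 bases, 14.2% of HSPE1. Of the 75-base stretches of HSPE1 transcripts, 35.0% also occur in other genes on either strand, most often HSPD1 (17.3%). Matches to HSPD1 can thus come from the exon overlap of the pair. The 26 rows named as HSPE1 pseudogenes held at most 2.78% as many counts as HSPE1. The read-through gene HSPE1-MOB4, which shares 192 exon bases with HSPE1, was listed at 0 in every library. The part of these overlaps in the HSPE1 level was not tested. For the members other than HSPA1A, HSPA1B and HSPE1 the shared part was smaller, from 0% in HSPH1 to 12.5% in HSPD1. Pseudogene rows named after HSPA8 or HSPD1 held at most 0.160% and 0.796% of the counts of the parent gene.

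Chromosome 6 genes lay higher in PIG-LONA as a group. The 796 tested ones other than the 3 members had a median log2 fold change of 0.17, with 223 higher and 14 lower in the test and 82.2% above 0, whereas the 15112 genes elsewhere had a median of -0.0036. Library by library, the chromosome 6 median lay at -0.06 and -0.11 in PIG-EMPTY and at 0.07 and 0.09 in PIG-LONA, so the shift was present in both libraries of each group. The HSP90AB1 difference minus that chromosome 6 median was -0.02, above 357 of the 796 genes. HSPA1A lay 0.04 above it, ahead of 491, and HSPA1B 0.15 above it, ahead of 670. HSP90AB1 and HSPA1A therefore stood near the middle of their chromosome, and HSPA1B in its upper part.

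**Figure D3:**
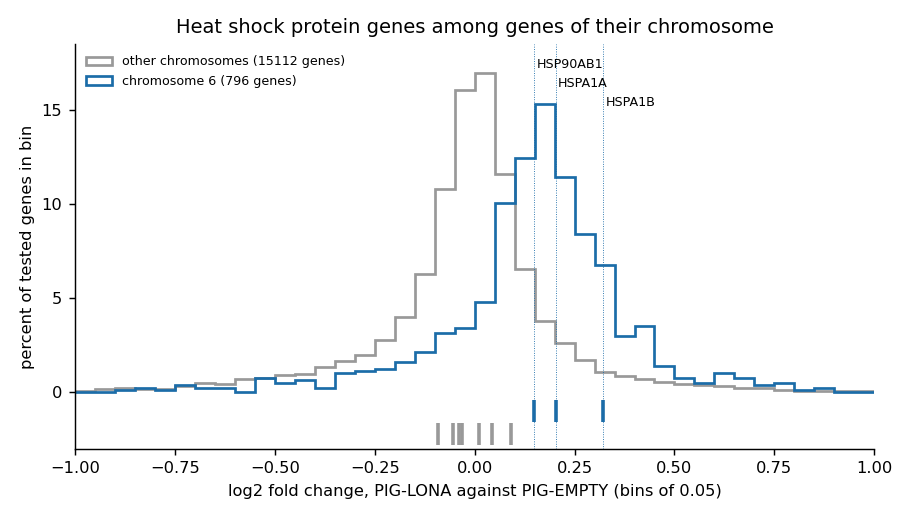
Distribution of log2 fold changes (x axis, bins of 0.05) as percent of tested genes (y axis) on chromosome 6 (blue) and elsewhere (grey), without the 10 genes, whose values are the ticks below 0. The chromosome 6 curve sits to the right, and the blue ticks of HSP90AB1, HSPA1A and HSPA1B fall inside it. The 201 genes beyond -1 or 1 are not drawn.

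When the median shift of the chromosome was taken off its genes in each library, 0 of the 10 genes were called in edgeR (2 were higher and 1 lower at unadjusted p under 0.05). HSP90AB1 then stood at -0.02 ± 0.03 (edgeR adjusted p = 0.847), a change of sign, and HSPA1A at 0.04 ± 0.05 (edgeR adjusted p = 0.782). HSPA1B kept a value of 0.16 ± 0.06 and did not pass (edgeR adjusted p = 0.151). Over chromosome 6 as a whole, 2.13% of tested genes were called higher after this step. The cause of the chromosome 6 shift was not tested.

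**Figure D4:**
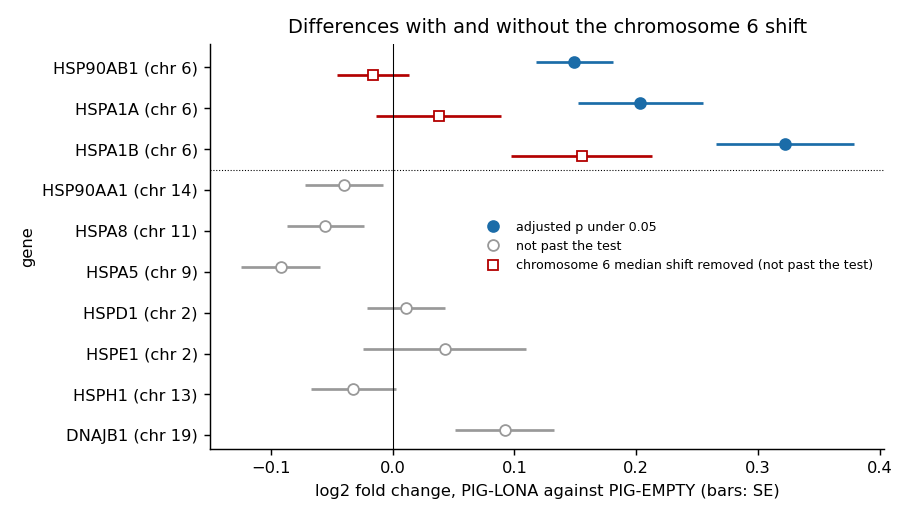
Log2 fold change of PIG-LONA against PIG-EMPTY with its SE (x axis) for the 10 genes (y axis). Filled blue circles passed the test and open grey circles did not. Open red squares are the chromosome 6 genes after removal of the median shift, at -0.02 for HSP90AB1, 0.04 for HSPA1A and 0.16 for HSPA1B.

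Neighbouring genes were read against the rest of chromosome 6, where 28.0% of the other tested genes rose and the median was 0.17. Within 1 Mb on either side of HSP90AB1, 10 of 24 tested genes rose (41.7%) and 0 fell, with a median of 0.19. The nucleoside transporter gene SLC29A1, next to HSP90AB1 at lower coordinates, had 135 and 127 CPM in PIG-EMPTY and 165 and 160 CPM in PIG-LONA (log2 fold change 0.31 ± 0.04, edgeR adjusted p = 8.16e-05). SLC35B2, whose product carries the sulphate donor PAPS into the Golgi, lies 208 bases beyond the other end of HSP90AB1 and rose by 0.20 ± 0.05. The SLC35B2 call was lost with the chromosome shift removed (edgeR adjusted p = 0.760), without PIG-EMPTY replicate 2 (0.232) and when low counts were not filtered (0.0582). The next genes out were TMEM63B, at 0.23 ± 0.08 (edgeR adjusted p = 0.0780), and the NF-kB inhibitor gene NFKBIE, at 0.01 ± 0.06. NFKBIE, with 34.1 and 33.8 CPM in PIG-EMPTY and 34.6 and 33.8 CPM in PIG-LONA, was level between the groups although its neighbours were higher.

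Around HSPA1A and HSPA1B, 17 of 62 tested genes within 1 Mb rose (27.4%) and 2 fell, with a median of 0.17. The splicing gene LSM2 (0.26 ± 0.05) and the small nucleolar RNA host gene SNHG32 (0.31 ± 0.06) rose, although both calls were lost with the chromosome shift removed and that of LSM2 also without PIG-EMPTY replicate 2 (edgeR adjusted p = 0.155) and when low counts were not filtered (0.0576). The sialidase gene NEU1 was at 0.10 ± 0.06 (edgeR adjusted p = 0.352). HSPA1L, another HSP70 gene of this cluster that is best known from testis, lies 399 bases from HSPA1A. It had 4.30 and 4.46 CPM in PIG-EMPTY and 3.88 and 3.72 CPM in PIG-LONA. Both PIG-LONA libraries of this weakly expressed gene were the lower ones, but its log2 fold change of -0.21 ± 0.14 missed the threshold (edgeR adjusted p = 0.478).

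A wider set of 153 chaperone and stress genes from 11 textbook lists was looked at in the same way. Of these, 143 were tested, 11 on chromosome 6 and 132 elsewhere. On chromosome 6, 9 of 11 rose and 0 fell, with a median of 0.19, and elsewhere 0 of 132 rose and 3 fell, with a median of -0.01. The 10 genes are part of these counts. The 9 rises among 11, 3 of them in the members, stand beside 28.3% of tested chromosome 6 genes called higher. The median of 0.19 of these 11 stands beside 0.17 for the tested chromosome 6 genes other than the members. The 0 rises elsewhere stand against a background of 1.59% of genes outside chromosome 6, and the 3 falls among 132 against 3.60%. At unadjusted p under 0.05 in edgeR, 5 of the 132 were higher and 12 lower, and DESeq2 and limma-voom also called 0 higher. With the chromosome 6 shift removed, 0 of the 143 rose in edgeR (8 were higher at unadjusted p under 0.05). Leaving out PIG-EMPTY replicate 2 left 1 of the chromosome 6 rises. Elsewhere, 3 rose and 17 fell without PIG-LONA replicate 1, and 5 rose and 5 fell without PIG-LONA replicate 2.

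Besides the 3 members, the rises on chromosome 6 were those of 6 genes. BAG6 (0.19 ± 0.04), a chaperone for tail-anchored and mislocalised proteins, had 294 and 277 CPM in PIG-EMPTY and 328 and 325 CPM in PIG-LONA. BAG2 (0.30 ± 0.06) is an HSP70 co-chaperone, FKBP5 (0.30 ± 0.06) an HSP90 co-chaperone of steroid receptors, HSF2 (0.25 ± 0.06) a second heat shock factor, TCP1 (0.18 ± 0.04) a subunit of the cytosolic chaperonin and PSMB1 (0.19 ± 0.04) a proteasome subunit. The calls of BAG2, BAG6, FKBP5, HSF2, TCP1 and PSMB1 were lost when the chromosome shift was removed, and also without PIG-EMPTY replicate 2. HSF2 lost its call as well in DESeq2 (adjusted p = 0.109), without the low-count filter (edgeR adjusted p = 0.0780) and without PIG-EMPTY replicate 1 (0.166). BAG2 and FKBP5 also lost theirs without the low-count filter (edgeR adjusted p = 0.0541 and 0.0727). The prefoldin gene PFDN6, also on chromosome 6, stood at 0.13 ± 0.06, short of the threshold (edgeR adjusted p = 0.190).

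By family, the HSP90 list had 1 rise among 4 tested genes, HSP90AB1. HSP90B1 of the endoplasmic reticulum (-0.01 ± 0.03) and the mitochondrial TRAP1 (0.02 ± 0.04) did not pass. The HSP70 and HSP110 list had 2 rises, HSPA1A and HSPA1B, and 1 fall among 15, with a median of 0.01. DESeq2 called 1 of these rises and did not call the fall. Across all tested genes 2.93% were higher and 3.51% lower. The HSP40 list had 0 rises in edgeR (2 at unadjusted p under 0.05) and 1 fall among 15, and both small heat shock protein genes tested did not pass (HSPB1 -0.12 ± 0.04, edgeR adjusted p = 0.113, and IFT25, formerly HSPB11). Chaperonin and prefoldin genes had 1 rise among 14, co-chaperones 3 among 22 and proteasome subunits 1 among 31, each of them on chromosome 6, beside 2.93% of all tested genes called higher and 28.3% of those on chromosome 6. Leaving out 1 library moved these counts of rises to 0 to 2 for chaperonin and prefoldin genes, 0 to 4 for co-chaperones and 0 to 3 for proteasome subunits, each with 0 without PIG-EMPTY replicate 2.

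Among 26 tested textbook targets of HSF1, 3 rose, the 3 members on chromosome 6, and 3 fell, with a median of -0.02, beside 2.93% of all tested genes higher and 3.51% lower. Leaving out 1 library gave 1 to 5 rises (the low end without PIG-EMPTY replicate 2 and the high end without PIG-LONA replicate 2) and 1 to 6 falls (the low end again without PIG-EMPTY replicate 2, the high end without PIG-LONA replicate 1). DESeq2 called 1 of the falls, as did edgeR when low counts were not filtered. With the chromosome 6 shift removed, 0 of these targets rose in edgeR (2 were higher at unadjusted p under 0.05). The falls were in genes of low level. DNAJA4, a J protein gene, had 16.3 and 17.3 CPM in PIG-EMPTY and 11.1 and 9.99 CPM in PIG-LONA (log2 fold change -0.68 ± 0.09, edgeR adjusted p = 3.92e-05), and it passed in all 16 alternatives. HSPA6, a heat-inducible HSP70 gene, had 8.19 and 8.19 CPM in PIG-EMPTY and 5.78 and 6.03 CPM in PIG-LONA (-0.47 ± 0.11, edgeR adjusted p = 0.0121). Its call was lost without PIG-EMPTY replicate 2 (edgeR adjusted p = 0.0630), in DESeq2 (adjusted p = 0.117) and without the low-count filter (edgeR adjusted p = 0.0667). HMOX1, the haem oxygenase gene, was at -0.56 ± 0.17 (edgeR adjusted p = 0.0467) and lost its call in 9 of 16 alternatives. HSF1 itself, on chromosome 8, had 93.6 and 94.1 CPM in PIG-EMPTY and 91.5 and 93.3 CPM in PIG-LONA (log2 fold change -0.02 ± 0.04).

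Organelle chaperones were not called. Of 24 tested genes of the endoplasmic reticulum and its unfolded protein response, HSPA5 among them, 0 rose and 0 fell in edgeR, DESeq2 and limma-voom, with a median of -0.02 and with 2 higher and 2 lower at unadjusted p under 0.05 in edgeR. CANX, the lectin chaperone calnexin, was at 0.08 ± 0.03 (edgeR adjusted p = 0.210) and DDIT3, a stress transcription factor gene, at -0.25 ± 0.10 (edgeR adjusted p = 0.156). Of 15 mitochondrial chaperone and protease genes, 0 were called by the same tools, with a median of 0.02 and 1 gene at unadjusted p under 0.05, HSCB (-0.23 ± 0.10), an iron-sulphur cluster co-chaperone. The protease partner CLPX stood at 0.08 ± 0.04. Without PIG-LONA replicate 1, 6 genes of the endoplasmic reticulum list fell and 1 rose, HSPA5 among the former.

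**Figure D5:**
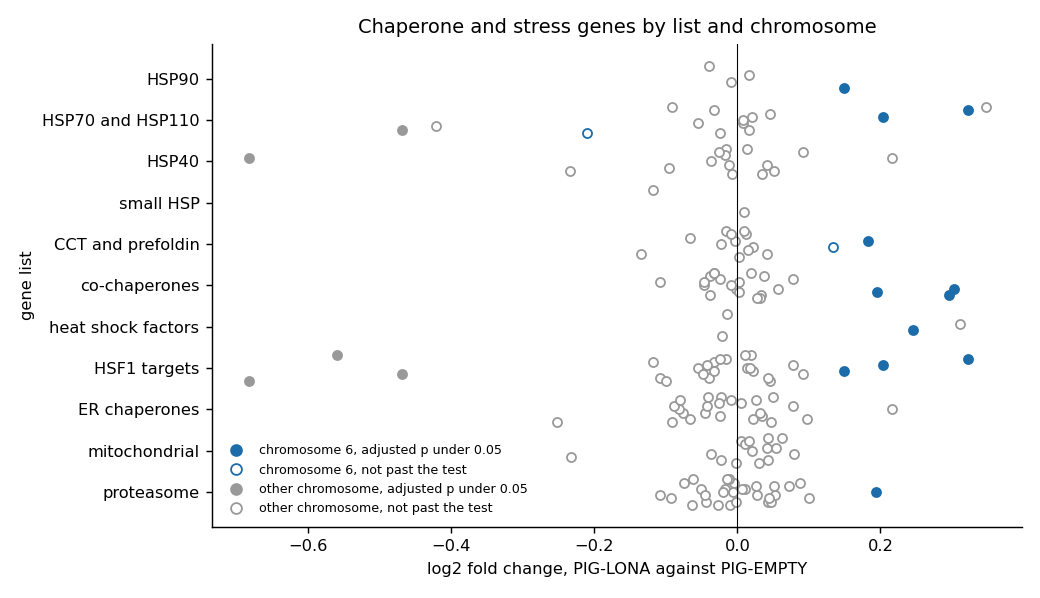
Log2 fold change (x axis) of each tested gene of the 11 chaperone and stress lists (y axis), blue for chromosome 6 and grey for other chromosomes. Filled points passed the test at adjusted p under 0.05. All filled points right of 0 are blue, and the 3 genes that fell are grey (2 of them stand in more than 1 list).

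Immediate early genes, which respond to handling and growth signals, had 1 rise and 2 falls among 16 tested genes, beside 2.93% of all tested genes higher and 3.51% lower. Leaving out 1 library gave 0 to 4 rises (0 without either PIG-EMPTY library, 4 without PIG-LONA replicate 2) and 1 to 2 falls, and DESeq2 called 0 rises and 1 fall. FOS fell (-0.38 ± 0.06), BTG2 fell (-0.26 ± 0.06) and EGR1 rose (0.19 ± 0.05). The call of FOS held in all 16 alternatives. Those of BTG2 and EGR1 were lost in DESeq2 (adjusted p = 0.125 and 0.140), without the low-count filter (edgeR adjusted p = 0.0906 and 0.0960), without PIG-EMPTY replicate 1 (0.0551 and 0.0977) and without PIG-EMPTY replicate 2 (0.174 and 0.345). Of the 12 leukaemia markers, 4 fell and FLT3, a receptor kinase gene, rose (0.44 ± 0.05). Across all tested genes 3.51% were lower and 2.93% higher. ANPEP stood at -0.57 ± 0.06 and the integrin gene ITGAM at -0.89 ± 0.11. The calls of ANPEP and ITGAM held in all 16 alternatives. LYZ, the lysozyme gene, stood at -0.70 ± 0.12, with 52.9 and 34.2 CPM in PIG-EMPTY and 26.0 and 27.1 CPM in PIG-LONA. The PIG-EMPTY libraries differed widely in LYZ, and its value was -0.36 without PIG-EMPTY replicate 1 and -0.99 without PIG-EMPTY replicate 2. The LYZ call was lost in DESeq2 (adjusted p = 0.261) and without the low-count filter (edgeR adjusted p = 0.0937). DESeq2 called 2 falls among the markers. The part of these differences in those of the heat shock genes was not tested.

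Over the 4 libraries, the 5 genes most like HSP90AB1 by Euclidean distance of centred log2 CPM, out of 9352 with a mean of at least 10 CPM, were SNX3, C1orf198, MCM6, HAL and VTA1, at distances of 0.0115 to 0.0125. SNX3 (0.15 ± 0.04) and VTA1 (0.15 ± 0.04) lie on chromosome 6, and the other 3 on chromosomes 1, 2 and 12. For HSP90AA1 they were MID1IP1, PSMD7, PNPLA2, PGAM1 and COX7C, at 0.00544 to 0.00793 and on chromosomes X, 16, 11, 10 and 5. These 4 libraries are the ones the comparison used, so the lists are a description only.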

How the data were processed

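Poly(A) RNA of 4 cultures was sequenced from directional libraries. The authors deposited raw read counts for each Ensembl gene, made with FastQC 0.11.4, STAR 2.5 and HTSeq on hg38, per the submitters' processing notes. Annotation release and strand setting: not given in the sources used here, so reads of antisense or overlapping partners cannot be told apart. Symbols came from a reference table (60402 of 67062 rows matched) and positions and merged exon lengths from GENCODE 29 (GRCh38).

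Genes passed filterByExpr (minimum count 10, total 15), counts were scaled by TMM, and edgeR 4.0.16 (quasi-likelihood, legacy form off, R 4.3.3) tested group alone, two-sided, over 15918 genes. The SE is the log2 fold change over the square root of F. CPM uses TMM totals for tested genes and library totals for marker sums. The script was tested on simulated data. Alternatives were DESeq2 1.42.0, limma 3.58.1, other scalings and filters, a replicate block, single libraries left out, a threshold of 0.01, both chromosome 6 corrections, and HSPA1A and HSPA1B summed. Libraries of a group differed by more than counting noise (chi-square per gene 1.77 and 4.32), so none was taken for a repeat deposit of another.

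Named were the 10 genes, up to 4 others per list with the smallest p past the threshold (2 where 0 passed), the 2 nearest tested genes on each side on chromosome 6, and 5 genes alike in pattern to each HSP90 gene. PFDN6 and HSF1 were named after their values were seen. Genes and lists were chosen with earlier results of these data known.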

Additional observations from a re-analysis of the deposited data

How the results depend on the processing

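The main test called 1025 genes in PIG-LONA against PIG-EMPTY, and the count was 473 with the DESeq2 Wald test, 334 without the low-count filter and 528 at adjusted p under 0.01, and leaving out 1 library gave 466 to 2331. Of the 10 heat shock protein genes 3 were called. Leaving out 1 library gave 1 to 6 (1 if PIG-EMPTY replicate 2 was left out, 6 if either PIG-LONA library was), and removing the chromosome 6 shift gave 0. The paralog log2 ratios kept their direction with any library left out, at 0.17 to 0.21 for HSP90AB1 to HSP90AA1, 0.25 to 0.34 for HSPA1A plus HSPA1B to HSPA8 and 0.29 to 0.38 to HSPA5. Over 42 named genes and up to 16 alternatives each, 593 of 671 values kept direction and side of the threshold, 58 lost their call, 11 gained one and 9 changed sign. PFDN6, HSF1 and the genes alike in pattern to the HSP90 genes were not among these 42. Sign changed for HSP90AB1 (-0.016), NEU1 (-0.066) and NFKBIE (-0.16) with the chromosome 6 shift removed, and for NFKBIE (-6.3e-05) and IFT25 (-0.00040) with upper-quartile scaling. Leaving out 1 library gave -0.091 to 0.18 for HSPE1, -0.00041 to 0.025 for HSPD1, -0.0052 to 0.028 for NFKBIE and -0.0029 to 0.025 for IFT25. The cause was not tested.

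Replicate numbers are shared by label only, and deviations of libraries of the same number correlated at 0.0974 over 9357 genes. With the replicate block 1101 of all genes and 3 of the 10 were called, and the paralog log2 ratios differed by 0.19, 0.29 and 0.33. With 2 libraries per group the SE of the 10 genes ran from 0.03 to 0.07 on the log2 scale, which limits what could be called.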
